A study of Mus musculus with 6 samples.

Results

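The erythroid GATA complex is the group of transcription factors that switches on the red cell programme. It was examined here as 10 named genes among the 16440 genes of the expression table: Gata1, Gata2, Zfpm1 (FOG1), Tal1 (SCL), Klf1, Gfi1b, Nfe2, Lmo2, Ldb1 and Lyl1. They were chosen by gene name, with earlier results of these data known. All 10 were in the table and passed the filter on low values. RNA was compared between 3 libraries of c-Kit+ APL progenitors and 3 libraries of normal myeloid progenitors (MPs). The MPs were sorted from FVB N/J BM as cells with the Lin-Sca-1-c-Kit+ phenotype, a gate that holds common myeloid, granulocytic and monocytic, and megakaryocytic and erythroid precursors together. The APL cells, also of strain FVB N/J, came from leukemia of hMRP8-PML/RARα transgenic mice, in which a human promoter active in myeloid cells drives the fusion gene. They were labeled with the GFP retroviral vector MigR1, expanded by transplantation into syngeneic mice and sorted as GFP-labeled c-Kit+ cells. No drug treatment is given for either group, and the labels give no age of the mice. The replicates are called biological, but it is not stated that they came from separate mice or separate leukemias, so p-values may measure technical spread only.

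The fusion gene, the retrovirus, the transplantation and the different sorting gates all go with the APL label and cannot be told apart. In sorted but mixed populations, fewer cells of a type and less RNA per cell cannot be told apart either. Before scaling, the libraries held between 20608735 and 28382771 fragments. Kit, the sorting marker, was present in all 6 libraries, with 10442 to 10970 scaled fragments in MPs and 5780 to 6033 in APL cells. One library stood apart: MP library 3 differed from the other MP libraries more than these differed from each other. The median over genes of the squared difference divided by that expected from counting was 13.6 and 13.7 for its pairs, 3.31 for MP libraries 1 and 2, and 4.11 to 6.91 among APL libraries. MP library 3 had the highest MP value for 9 of the 10 factors, all but Tal1, and for 61.6% of 10174 genes. For the factors whose call turns on it, and for the gene lists whose counts change, values without it are given below.

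GATA1 and GATA2 are zinc finger proteins that bind GATA motifs and follow each other on shared sites, with GATA2 leading in early progenitors and mast cells and GATA1 in erythroid cells and megakaryocytes. FOG1, the product of Zfpm1, binds GATA1 and brings in chromatin remodelling proteins. TAL1 or its close relative LYL1 pairs with an E protein on E-box motifs, and LMO2 and LDB1 bridge that pair to a GATA factor. KLF1 binds CACCC motifs of erythroid genes, GFI1B is a repressor of red cell and platelet precursors, and NF-E2, whose larger subunit is encoded by Nfe2, acts at globin and platelet genes.

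The sequences just upstream of 5 of these genes are shown because proteins of the complex recognise short motifs in DNA and because the set holds the 4 near-silent factor genes and Lyl1, a neighbour of Klf1 that did not fall. They are RefSeq windows of build GRCm38.p6, 5′ to 3′ on the strand of the gene. Capitals mark GATA motifs (GATA with A or T before it and A or G after it) and CACCC-type motifs (CCNCNCCC), both searched on either strand, and overlapping matches were counted separately. The Gata1 window is chrX:7967911-7968160 (minus strand), the Gfi1b window chr2:28621983-28622232 (minus strand), the Klf1 window chr8:84901732-84901927 (plus strand), the Zfpm1 window chr8:122281891-122282140 (plus strand) and the Lyl1 window chr8:84701207-84701456 (plus strand). The Klf1 window was shortened to end before the start of its locus in the table.
Gata1: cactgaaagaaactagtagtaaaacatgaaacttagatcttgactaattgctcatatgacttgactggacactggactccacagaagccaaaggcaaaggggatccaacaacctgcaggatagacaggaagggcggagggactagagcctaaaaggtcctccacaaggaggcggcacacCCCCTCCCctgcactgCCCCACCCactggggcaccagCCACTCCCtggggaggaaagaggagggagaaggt
Gfi1b: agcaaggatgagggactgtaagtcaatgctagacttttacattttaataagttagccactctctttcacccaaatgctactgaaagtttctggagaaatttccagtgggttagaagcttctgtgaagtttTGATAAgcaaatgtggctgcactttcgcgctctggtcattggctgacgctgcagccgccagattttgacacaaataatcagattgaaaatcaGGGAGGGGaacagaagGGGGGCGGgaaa
Klf1: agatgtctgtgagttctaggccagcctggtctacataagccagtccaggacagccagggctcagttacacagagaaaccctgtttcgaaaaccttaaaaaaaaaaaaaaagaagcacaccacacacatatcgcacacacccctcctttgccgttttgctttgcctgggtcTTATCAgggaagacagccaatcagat
Zfpm1: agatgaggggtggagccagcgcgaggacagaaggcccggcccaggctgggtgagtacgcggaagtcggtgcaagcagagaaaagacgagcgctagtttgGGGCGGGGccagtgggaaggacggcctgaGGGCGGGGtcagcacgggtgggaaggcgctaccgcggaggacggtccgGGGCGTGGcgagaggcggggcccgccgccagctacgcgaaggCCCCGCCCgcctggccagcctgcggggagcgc
Lyl1: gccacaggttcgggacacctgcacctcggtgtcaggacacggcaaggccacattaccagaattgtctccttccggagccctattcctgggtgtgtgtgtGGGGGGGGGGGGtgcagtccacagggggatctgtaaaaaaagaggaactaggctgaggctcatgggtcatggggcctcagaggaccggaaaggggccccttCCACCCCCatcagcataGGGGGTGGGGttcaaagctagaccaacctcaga

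A RefSeq window was at hand for 8 of the 10 genes, not for Nfe2 or Lmo2, and that of Tal1 starts 1716 bases from the start of its locus in the table. In the 250 bases upstream of the start, a GATA motif was found for 2 of the 8, Gfi1b and Klf1, and in 26.5% of all 32851 windows. The CACCC-type motif was found for 7 of the 8, all but Klf1, and in 45.9% of all windows. Its pattern also matches plain runs of G or C, as in the Lyl1 window, so it is wider than the letters CACCC. The E-box (CANNTG) was found for 4 of the 8 against 66.2% of windows, and the NF-E2 motif (TGANTCA) for 0 of the 8 against 6.75%. Such matches describe letters and say nothing of binding in these cells, which was not measured.

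Most of the factors were lower in APL cells, several of them almost to nothing. Gata1, Klf1, Gfi1b and Zfpm1 fell more than 100-fold, Gata2 40.2-fold, and Tal1 and Ldb1 about 4-fold. Lmo2, Nfe2 and Lyl1 stayed within 1.5-fold of the MP level. A gene was called changed at a Benjamini-Hochberg adjusted p under 0.05 in limma over 14595 genes and a fold change over 1.5, on log2(scaled fragments + 1). With that rule 7 of 10 were called lower, where 24.4% of all genes tested were, and 0 were called higher, where 21.7% were. The factors were chosen with earlier results of these data known, so such counts describe them and are no independent test. An unadjusted limma p under 0.05 was found for 8 lower and 2 higher. The adjusted p alone held for the same numbers, 8 lower, where 37.3% of all genes were, and 2 higher, where 29.7% were. The MP and APL ranges did not overlap for any of the 10: 8 were lower (39.8% of all genes) and 2 higher (31.1%). The median log2 fold change of the 10 was -3.71, and that of all genes tested -0.10. Of all genes tested, 0.589% were more than 100-fold lower when genes at the floor were taken at their bound. With 3 libraries against 3, the exact two-sided permutation p was 0.1 for each factor, the smallest this design allows.

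**Figure D1:**
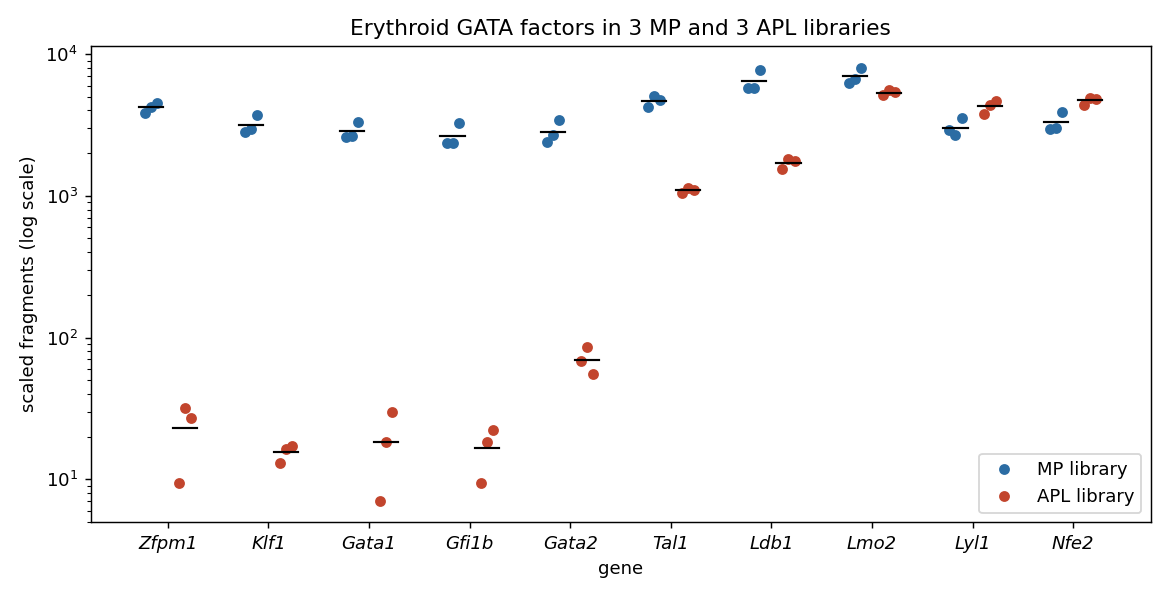
Scaled fragments (log axis) of each of the 10 factors in every library, with MP and APL libraries as separate points and lines at the group means. Gata1, Zfpm1, Klf1 and Gfi1b lie between 2360 and 4554 in MPs and between 7.07 and 32.1 in APL cells, while Nfe2, Lmo2 and Lyl1 stay between 2673 and 8033 in both groups.

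Gata1, the GATA factor that erythroid cells cannot mature without (Entrez 14460, chromosome X, 7959260 to 7967815, GRCm38), had 2589, 2661 and 3335 scaled fragments in MP libraries 1 to 3. In APL libraries 1 to 3 it had 7.07, 18.2 and 29.6. All MP values were high and all APL values near the floor of detection, with no overlap. Before scaling, the APL values were 6, 21 and 24 fragments, with exact Poisson 95% intervals of 2.20 to 13.1, 13.0 to 32.1 and 15.4 to 35.7, which cover counting error only. The mean went from 2862 ± 412 to 18.3 ± 11.3 (SD, n = 3 per group), a log2 fold change of -7.40 (SE 0.41, limma adjusted p = 5.9e-07) or 169-fold. Per length and depth, the level went from 67.1 ± 8.20 FPKM to 0.432 ± 0.266 FPKM. Gata1 overlaps 2 lncRNA genes of RefSeq, Gm39488 and Gm52419, and because strand is not stated their fragments cannot be told apart from those of Gata1.

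Zfpm1, whose product FOG1 is the partner of GATA1 (Entrez 22761, chromosome 8, 122282141 to 122337247), had 3855, 4204 and 4554 scaled fragments in MPs. In APL cells it had 9.43, 32.1 and 27.2. The groups lay far apart, and APL library 1 was the lowest for Zfpm1 as it was for Gata1. The mean went from 4205 ± 350 to 22.9 ± 11.9 (SD, n = 3 per group), a log2 fold change of -7.62 (SE 0.37, limma adjusted p = 2.9e-07). The level was 52.0 ± 3.33 FPKM in MPs and 0.294 ± 0.154 FPKM in APL cells. The RefSeq lncRNA Gm39269 overlaps its locus.

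Klf1, the erythroid Krüppel-like factor (Entrez 16596, chromosome 8, 84901928 to 84905295), had 2805, 2938 and 3726 scaled fragments in MPs. It had 13.0, 16.5 and 17.3 in APL cells. The APL libraries were closer to each other for Klf1 than for Gata1 or Zfpm1. Klf1 went from a mean of 3157 ± 498 to 15.6 ± 2.30 (SD, n = 3 per group), a log2 fold change of -7.57 (SE 0.16, limma adjusted p = 5.8e-09) or 190-fold. At 95.5 ± 10.5 FPKM, Klf1 ranked 3 of the 10 in MPs, and in APL cells it was at 0.477 ± 0.0670 FPKM.

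Gfi1b, the repressor of this group (Entrez 14582, chromosome 2, 28609450 to 28621982), had 2360, 2375 and 3249 scaled fragments in MPs. It had 9.43, 18.2 and 22.2 in APL cells. The 3 APL libraries stood in the same order for Gfi1b as for Gata1, with APL library 1 the lowest. Gfi1b thus fell from a mean of 2661 ± 509 to 16.6 ± 6.54 (SD, n = 3 per group), a log2 fold change of -7.30 (SE 0.28, limma adjusted p = 8e-08) or 158-fold. The level went from 62.8 ± 10.9 FPKM to 0.406 ± 0.159 FPKM. The RefSeq lncRNA Gm52548 overlaps its locus. Its paralog Gfi1, a repressor of granulocytic precursors, moved the other way, from 2324 to 2871 scaled fragments in MPs to 7827 to 8443 in APL cells (log2 fold change 1.65, limma adjusted p = 4.7e-07).

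Gata2, the GATA factor of stem and early progenitor cells (Entrez 14461, chromosome 6, 88198664 to 88207032), had 2388, 2674 and 3450 scaled fragments in MPs. It had 68.3, 85.8 and 55.5 in APL cells. Gata2 also fell without overlap, but its APL values stayed above those of Gata1 in each library. Its mean fell from 2838 ± 550 to 69.9 ± 15.2 (SD, n = 3 per group), a log2 fold change of -5.33 (SE 0.18, limma adjusted p = 4.4e-08). The level was 35.6 ± 6.23 FPKM in MPs and 0.883 ± 0.187 FPKM in APL cells. On log2(FPKM + 1), where the pseudocount weighs more on low values, the changes were -4.27 for Gata2, -5.58 for Gata1, -5.36 for Zfpm1, -6.02 for Klf1 and -5.50 for Gfi1b, so the size of these folds depends on the scale.

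Within a library, the balance of the paralogs can be read as a log2 ratio of scaled fragments. Gata2 to Gata1 was -0.12, 0.01 and 0.05 in the MP libraries in numerical order, and 3.10, 2.18 and 0.88 in the APL libraries. All APL ratios were above all MP ratios, with a wide spread, and APL library 1, which had the highest ratio, had the fewest Gata1 fragments. The mean ratio went from -0.02 ± 0.09 to 2.05 ± 1.11 (SD, n = 3 per group), a difference of 2.07 with an exact permutation p of 0.1. Without APL library 3 the difference was 2.66, and on log2(FPKM + 1) it was 1.31. On the FPKM scale Gata2 was at 0.494 to 0.555 of Gata1 in MPs and at 1.01 to 5.13 of Gata1 in APL cells.

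Tal1, the basic helix-loop-helix factor of the complex (Entrez 21349, chromosome 4, 115059527 to 115071755), had 4242, 5072 and 4713 scaled fragments in MPs. It had 1044, 1135 and 1101 in APL cells. Tal1 fell in all APL libraries but was still well expressed there. Tal1 went from a mean of 4676 ± 416 to 1093 ± 45.9 (SD, n = 3 per group), a log2 fold change of -2.09 (SE 0.08, limma adjusted p = 8.6e-08) or 4.27-fold. The level was 42.3 ± 3.65 FPKM in MPs and 9.75 ± 0.366 FPKM in APL cells.

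Lyl1, the closest relative of Tal1 (Entrez 17095, chromosome 8, 84701457 to 84704716), had 2898, 2673 and 3516 scaled fragments in MPs. It had 3790, 4343 and 4694 in APL cells. The APL values were all above the MP values by a small gap. The mean went from 3029 ± 437 to 4276 ± 455 (SD, n = 3 per group), a log2 fold change of 0.50 (SE 0.12, 95% interval 0.24 to 0.77, limma adjusted p = 0.0045), or 1.42-fold, under the 1.5-fold threshold. Without MP library 3 it was 0.61 (limma adjusted p = 0.00018), and without APL library 1 it was 0.59, both past the threshold. The level was 72.0 ± 7.33 FPKM in MPs and 103 ± 11.7 FPKM in APL cells. A RefSeq model of Nfix overlaps Lyl1.

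The log2 ratio of Lyl1 to Tal1 was -0.55, -0.92 and -0.42 in the MP libraries and 1.86, 1.94 and 2.09 in the APL libraries. The sign differed between the groups in every library. The mean went from -0.63 ± 0.26 to 1.96 ± 0.12 (SD, n = 3 per group), a difference of 2.59 with an exact permutation p of 0.1. On the FPKM scale Lyl1 was at 1.43 to 1.90 times Tal1 in MPs and at 9.77 to 11.6 times Tal1 in APL cells.

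**Figure D2:**
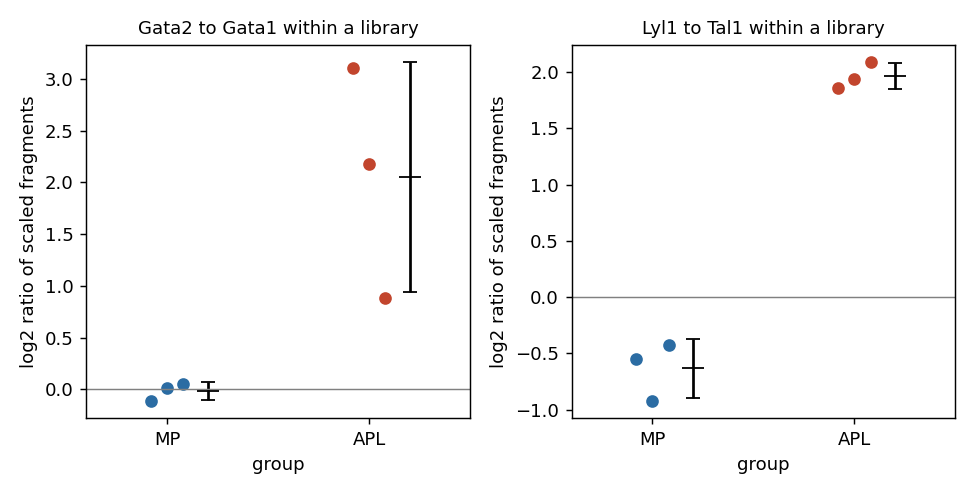
Log2 ratio of scaled fragments of Gata2 to Gata1 and of Lyl1 to Tal1 in each library, with group means and SD. The APL ratios lie between 0.88 and 3.10 for Gata2 to Gata1 and between 1.86 and 2.09 for Lyl1 to Tal1, above all MP ratios.

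Of the RNAs of the 2 bridging proteins, that of Ldb1 was called lower, and that of Lmo2 was lower but not called. Lmo2, the LIM-only protein that holds TAL1 and GATA factors together (Entrez 16909, chromosome 2, 103957995 to 103981878), had 6243, 6681 and 8033 scaled fragments in MPs. It had 5115, 5558 and 5396 in APL cells. The ranges did not overlap, but the difference was small. The mean went from 6986 ± 933 to 5356 ± 224 (SD, n = 3 per group), a log2 fold change of -0.38 (SE 0.10, 95% interval -0.60 to -0.15, limma adjusted p = 0.0087), or 1.30-fold. Lmo2 was the highest of the 10 in both groups, at 182 ± 18.9 FPKM in MPs and 139 ± 4.97 FPKM in APL cells. The RefSeq gene Gm38515 overlaps its locus.

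Ldb1, the LIM domain binding protein that links complexes bound at a distance (Entrez 16825, chromosome 19, 46032601 to 46045211), had 5798, 5803 and 7706 scaled fragments in MPs. It had 1548, 1819 and 1759 in APL cells. Ldb1 fell in every APL library. Its mean fell from 6436 ± 1100 to 1709 ± 142 (SD, n = 3 per group), a log2 fold change of -1.90 (SE 0.12, limma adjusted p = 1.4e-06) or 3.74-fold. Its level of 30.6 ± 2.65 FPKM in APL cells was below that of Lmo2 in every library, as it was in MPs at 110 ± 15.2 FPKM.

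Nfe2, the haematopoietic subunit of NF-E2 (Entrez 18022, chromosome 15, 103248218 to 103255416), had 2974, 2997 and 3915 scaled fragments in MPs. It had 4403, 4884 and 4858 in APL cells. The APL values were all above the MP values. Nfe2 went from a mean of 3296 ± 537 to 4715 ± 270 (SD, n = 3 per group), a log2 fold change of 0.53 (SE 0.11, 95% interval 0.27 to 0.78, limma adjusted p = 0.0027), or 1.44-fold, under the threshold. Without MP library 3 it was 0.66 (limma adjusted p = 1.4e-05) and with median ratio scaling 0.59, both past it. The level was 76.9 ± 10.6 FPKM in MPs and 111 ± 6.65 FPKM in APL cells.

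Lyl1 and Nfe2, the factors that were higher in APL cells, sit on chromosomes whose genes were higher as a whole. The median log2 fold change was 0.48 over 778 genes of chromosome 8 and 0.46 over 563 genes of chromosome 15, against -0.23 to -0.06 on the other 18 chromosomes with genes tested. Relative to the median of its chromosome, Lyl1 differed by 0.02 and Nfe2 by 0.07. Of the genes tested on the same chromosome, 51.2% had a lower log2 fold change than Lyl1 and 52.9% a lower one than Nfe2. Klf1 and Zfpm1 are on chromosome 8 too, and relative to its median they were at -8.05 and -8.10.

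**Figure D3:**
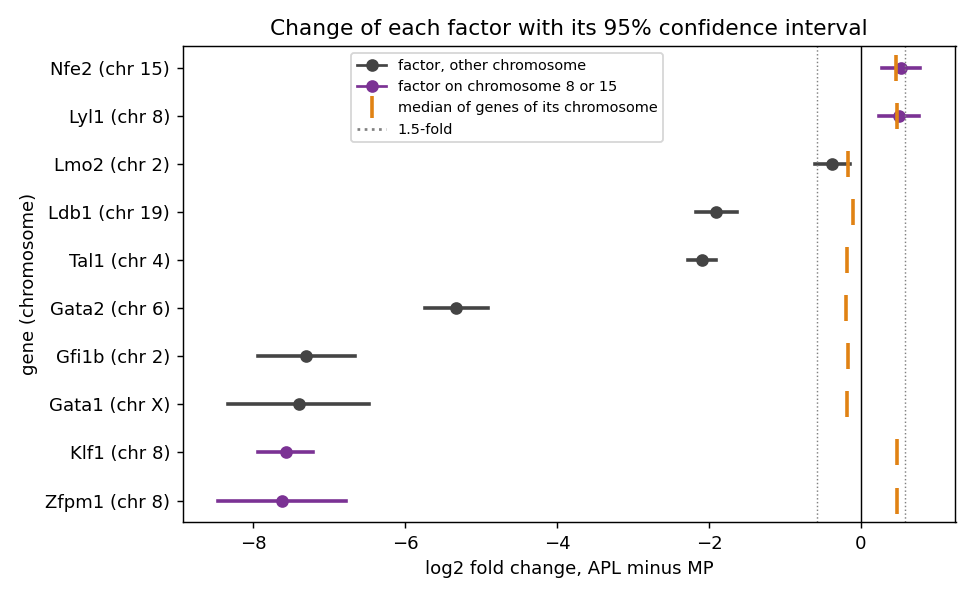
Log2 fold change of each factor (APL minus MP) with its 95% interval, and the median of the genes on its chromosome. Lyl1 and Nfe2 lie on the medians of chromosomes 8 and 15, and 7 factors lie at -1.90 or lower.

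Lyl1 and Klf1 are near neighbours on chromosome 8, with starts 200.471 kb apart. Klf1 fell 190-fold while Lyl1 did not fall. The 4 genes tested between them that have a locus of their own in the table ranged from -0.61 to 1.42 in log2 fold change, with a median of 0.18. Nfix was called lower (-0.61) and Calr, which encodes calreticulin, higher (1.42). Dand5 (-0.09) and Farsa (0.44) were not called.

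**Figure D4:**
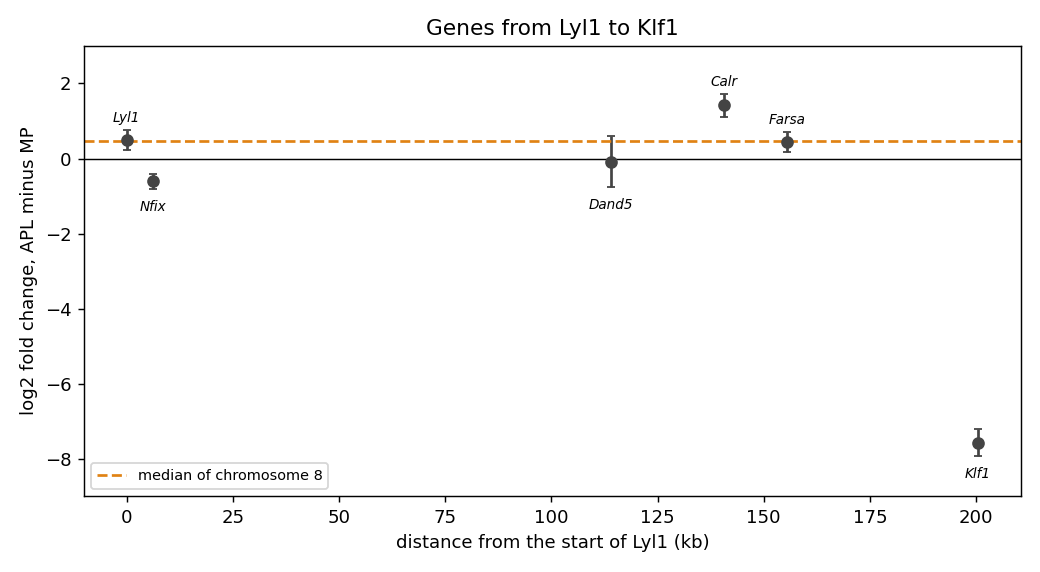
Log2 fold change (APL minus MP) with its 95% interval for Lyl1, Klf1 and the 4 genes between them with a locus of their own, by distance from the start of Lyl1 in kb, with the median of chromosome 8 as a dashed line. Klf1 lies at -7.57 and the other genes between -0.61 and 1.42.

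The order of the factors by FPKM differed between the groups. In MPs it was Lmo2, Ldb1, Klf1, Nfe2, Lyl1, Gata1, Gfi1b, Zfpm1, Tal1 and Gata2, from 182 down to 35.6 FPKM. The ranges of neighbours overlapped from Ldb1 through Gfi1b and between Tal1 and Gata2, so their order is not set beyond the spread. In APL cells it was Lmo2, Nfe2, Lyl1, Ldb1, Tal1, Gata2, Klf1, Gata1, Gfi1b and Zfpm1, from 139 down to 0.294 FPKM. Nfe2 and Lyl1 overlapped there, as did neighbours among Klf1, Gata1, Gfi1b and Zfpm1. The FPKM of the 10 summed to 726, 766 and 897 in the MP libraries and to 367, 408 and 414 in the APL libraries.

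The genes closest to Gata1 over the 6 libraries, by Euclidean distance of log2(scaled fragments + 1), were Gfi1b (0.585), Klf1 (1.12), Angpt1 (1.18), Ank1 (1.19) and Smo (1.19), so 2 of the 5 nearest were other factors of the complex. Of the remaining factors, Zfpm1 ranked 8, Gata2 104, Tal1 5076, Ldb1 7692, Lyl1 10771, Nfe2 11022 and Lmo2 11471. Ank1 encodes the ankyrin of the red cell membrane and Angpt1 a ligand of the TIE2 receptor. Both groups enter this distance, so it is a description of levels over 6 libraries.

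Other partners of the complex did not move one way. Of 20 tested, 7 were called lower, 5 higher and 8 not, with a median log2 fold change of -0.10. Among all genes tested, 24.4% were called lower and 21.7% higher. Without MP library 3, 6 of 19 partners were called lower and 5 higher. Among those named for their role, after their values were seen, the E protein gene Tcf3 (-1.38), the LDB1-binding gene Ssbp3 (-1.16) and the corepressor gene Cbfa2t3, also called ETO2 (-1.46), were lower. Ssbp4, a paralog of Ssbp3 (0.68), and Fli1 (1.11), also named after their values were seen, were called higher. Ssbp4 is on chromosome 8, and relative to the median of that chromosome it was at 0.20. Runx1, at 0.52, was under the fold threshold. By the rule of largest change, Gata3 was lower with all APL libraries at or under 3 fragments (at least 6.26-fold lower), Tal2 was higher with all MP libraries at or under 3 fragments (at least 3.90-fold higher), and Lmo1 (1.68) and Gfi1 (1.65) were higher. Of the highly expressed partners not called, Lmo4 had a log2 fold change of -0.02 and Mafg, a small MAF partner of NF-E2, 0.55.

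Of the 14 corepressor and remodelling partners of FOG1, GFI1B and TAL1, 4 were called lower, 1 higher and 9 not, with a median of -0.35. The lower count is near the share of all genes tested, 24.4% lower, with 21.7% higher. Without MP library 3, 3 of the 14 were called lower and 1 higher. Mta1 (-1.05), Hdac2 (-0.73) and Mta2 (-0.60) were lower and Ctbp2 (0.75) higher. Rbbp7 (-0.56) and Rbbp4 (-0.20) were not called. The count of lower genes was 2 with median ratio scaling and on log2(FPKM + 1), and 6 with quantile normalization, equal library totals or voom weights.

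Genes listed here as erythroid targets of the complex were lower almost without exception. Whether each gene of this list and of the target lists below is a target of the complex was not tested. Of 35 erythroid target genes tested, 32 were called lower, 1 higher and 2 not, and the median log2 fold change was -5.45, or -4.78 with genes at the floor set to their bound. Among all genes tested, 24.4% were called lower and 21.7% higher. In the list, 11 genes were more than 100-fold lower, with genes at the floor taken at their bound, against 0.589% of all genes tested. Pklr, the pyruvate kinase of red cells, went from 2480, 2488 and 2928 scaled fragments to 9.43, 7.80 and 6.17 (log2 fold change -8.24). Ermap (-7.91), an erythroid membrane protein gene, Spna1 (-7.82), which encodes α-spectrin, and Kel (-7.81), the Kell blood group gene, followed. Epor, the erythropoietin receptor gene, chosen after its values were seen, fell from a range of 1150 to 1654 to a range of 8.25 to 12.3 (-6.93). Slc25a37, the iron importer of mitochondria (-0.42), and Slc4a1, the band 3 anion exchanger (-1.31, limma adjusted p = 0.19), were not called. Bcl2l1, a survival gene, was the one called higher (0.67), and was not called without APL library 2 (0.57) or with each library scaled to the same total (0.54). The globin genes in this list have near-identical copies, and their counts are uncertain. Without MP library 3, 31 of 34 were called lower. The summed FPKM of the list was 977 to 1107 in MPs and 200 to 231 in APL cells.

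**Figure D5:**
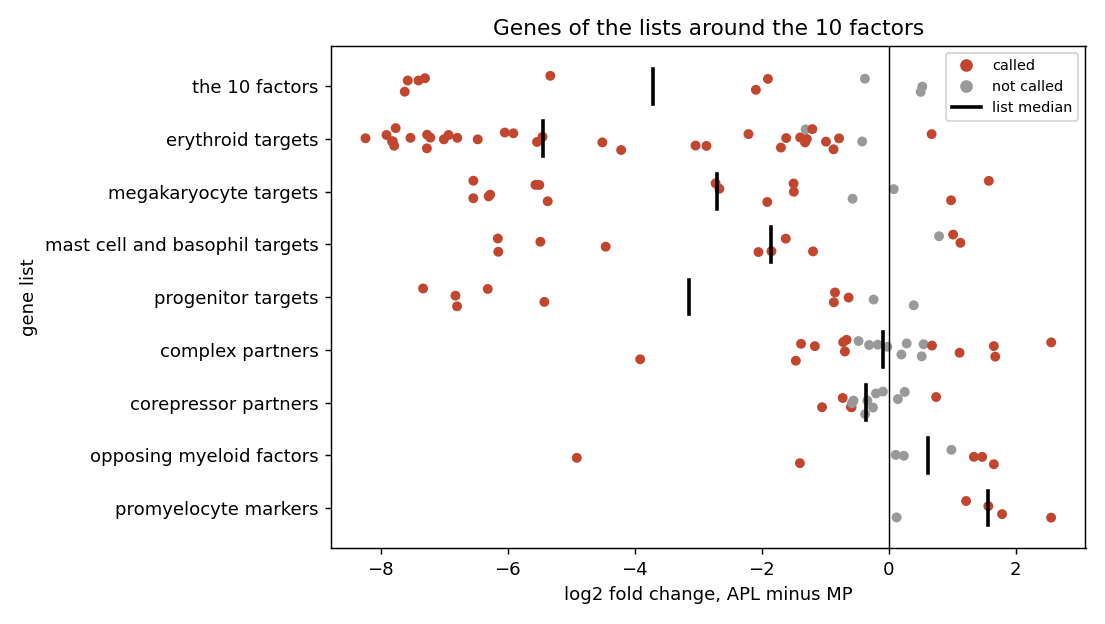
Log2 fold change (APL minus MP) of each gene tested in the factor group and in 8 gene lists, with called genes in red and the median of each list as a bar. Most erythroid, megakaryocyte and progenitor targets lie below 0 (medians -5.45, -2.70 and -3.14), and the partners spread around 0 (median -0.10).

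Megakaryocyte targets, the platelet side of GATA1, were lower in 12 of 16 tested, higher in 2 and not called in 2 (median -2.70). The shares among all genes tested were 24.4% lower and 21.7% higher. Without MP library 3, 11 of 15 megakaryocyte targets were lower and 2 higher. Rab27b (at least 66.1-fold lower) and Treml1 (at least 30.9-fold lower) were at or under 3 fragments in all APL libraries. Gp5, a platelet glycoprotein gene (-6.54), was also lower. Gp1bb (0.08) and Ppbp (-0.57) were not called. Mast cell and basophil targets, which lean on GATA2, were lower in 8 of 11, higher in 2 and not called in 1 (median -1.85, or -1.62 with bounds). Without MP library 3, 7 of 10 mast cell and basophil targets were lower and 2 higher. Il1rl1, the IL-33 receptor gene, was at -6.15 and Cpa3, mast cell carboxypeptidase, at -5.48, while Gzmb was at least 41.6-fold and Cma1 at least 9.58-fold lower. The 2 called higher, named after their values were seen, were Mcpt8, a basophil protease gene (1.13), and Mitf (1.01). On either FPKM scale 5 of the mast cell and basophil targets were called lower.

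Stem and progenitor targets were lower in 8 of 10 and not called in 2 (median -3.14, or -2.72 with bounds). Without MP library 3, 7 of 10 were lower. Meis1, a homeobox gene of stem cells (-7.33), Sox4 (-6.82), Angpt1 (-6.80) and Cd34 (-6.31) fell most, and Cd44 (-0.24) and Hhex (0.39) were not called. Of 8 granulocytic and monocytic factors listed here as opposing the complex, 2 were called lower, 3 higher and 3 not (median 0.61). Of all genes tested, 24.4% were called lower and 21.7% higher. Whether each of the 8 opposes GATA1 was not tested. Sfpi1, which encodes PU.1, went from 2275, 1925 and 2641 scaled fragments to 5634, 6998 and 6250 (log2 fold change 1.47, limma adjusted p = 8.7e-06). Gfi1 was higher, as given above, while Irf8, a monocytic factor (-4.91), and Egr1 (-1.40) were lower. Cebpe (0.24) and Klf4 (0.11) were not called.

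Markers of other cell types differed in direction, and those of T cells were not called. Among all genes tested, 24.4% were called lower and 21.7% higher. Of 5 promyelocyte markers, 4 were called higher and 1 not, and their summed FPKM was 8770 to 9920 in MPs and 24186 to 28629 in APL cells. Ctsg (2.55), Elane (1.78), Ms4a3 (1.57) and Mpo (1.22) were higher, and Prtn3 (0.12) was not called. Of 5 monocyte markers, 3 were lower and 2 higher, with a summed FPKM of 826 to 986 in MPs and 10617 to 10933 in APL cells. Ly6c2 (log2 fold change 3.61) carried that sum, and the other 4 summed to 36.0 to 41.1 FPKM in MPs and 17.2 to 17.8 FPKM in APL cells. Ccr2 (1.19) was also higher, and Csf1r (-1.81), Cx3cr1 (-2.82) and Ly86 (-4.74) were lower. T cell markers summed to 1.76 to 3.28 FPKM in MPs and 2.37 to 3.20 in APL cells, with 0 of 2 tested called by limma and 0 at an unadjusted p under 0.05, and Cd3e was at 0 in all libraries but 1. B cell markers summed to 12.2 to 14.7 FPKM in MPs and 0.305 to 0.638 in APL cells, with 2 of 3 lower (1 on either FPKM scale), and Ms4a1 was under 2 scaled fragments in every library. Endothelial markers summed to 10.8 to 11.8 and 0.876 to 1.03 FPKM, with 4 of 5 lower (1 on either FPKM scale), while Cdh5 was at most 3.47 scaled fragments in any library. Tie1 alone made up most of that sum, at 8.85 to 9.05 FPKM in MPs and 0.707 to 0.778 FPKM in APL cells. The part of these markers in the changes of the 10 factors was not tested, and the share of erythroid precursors in the MP gate cannot be told apart from a change within one cell type.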

How the data were processed

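The authors isolated the cells by FACS, extracted total RNA with an AMBION kit and prepared libraries with the TruSeq RNA kit. Strand is not stated. The labels' processing notes name CASAVA 1.8, TopHat2 2.0.6 and mm10, whereas the study's methods name STAR, mm9 and HTSeq-count. The deposited table gives FPKM, normalized by the authors to length and depth, and fragments per gene. The deposited fragments are a signal that the authors had divided by a factor of each library (86.9% to 89.4% of nonzero values, and 54 of 60 values of the 10 factors, were whole multiples of a step, tolerance 0.02), so no count test was run. Dividing by the step gave the fragments before scaling. Loci follow GRCm38, counted here from 1, and 2566 of 16440 genes share a locus.

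Genes with at least 1 scaled fragment in at least 3 of 6 libraries (14595) were tested with limma 3.58.1 in R 4.3.3 (lmFit, eBayes with trend) on log2(scaled fragments + 1), without a block, checked on simulated data. Calls needed a Benjamini-Hochberg adjusted p under 0.05 and a fold over 1.5. Where each library of a group held 3 fragments or fewer, the fold is a lower bound computed against 3 fragments per library. Ratios were compared with two-sided exact permutation tests. Named genes were the 10 factors, per list up to 4 called genes with the largest change and up to 2 of the highest FPKM not called, the 5 genes nearest to Gata1, and genes stated as chosen later. A gene that this rule selects is not reported here. The members and lists were chosen with earlier results of these data known. Of the listed genes, Pax5, Cd2, Zfpm2, Ahsp and Hbb-bt were not analysed here. Promoter windows came from RefSeq (GRCm38.p6). Alternatives covered filters, pseudocounts, scaling, FPKM, voom weights, the replicate block and leaving out each library. Figures used matplotlib 3.10.9 in Python 3.11.15.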

Additional observations from a re-analysis of the deposited data

How the results depend on the processing

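The 7 calls of lower factors held under all 17 alternatives to the test, and 8 of the 10 factors kept their direction and side of the threshold in each planned one, the exceptions being Nfe2 and Lyl1. The number of factors called higher was 0 as reported, 1 with median ratio scaling (Nfe2, 0.59), 0 to 2 when libraries were left out in turn (2 without MP library 3, 1 without APL library 1), and 2 with no fold threshold, an alternative added after seeing the data that also gave 8 lower. Over all genes, 3558 were called lower, 1980 on log2(FPKM + 1) and 2239 on log2(FPKM + 0.1). Equal library totals and voom weights moved the median of all genes by -0.13 and raised the lower share of calls from 52.9% to 60.8% and 60.9%, whereas it was 47.2% without MP library 3, 47.9% with quantile normalization and on log2(FPKM + 1), 48.4% on log2(FPKM + 0.1) and 49.0% with median ratio scaling. With the replicate block 6753 genes were called, against 6725, of which 6673 were shared, and no call of a factor changed. Same-numbered libraries had correlations of their deviations of 0.13, -0.0016 and 0.13, so they share a number and are not shown to be paired, and not every library correlated best with its own number. With the block the differences of both ratios had an exact permutation p of 0.25, the smallest that 3 pairs of libraries allow. The ratio differences kept their direction in all 11 alternatives, and leaving out libraries gave 1.55 to 2.66 for Gata2 to Gata1 and 2.45 to 2.70 for Lyl1 to Tal1.

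Directions turned for genes that were not called. With quantile normalization Cd3d was at 0.46, Cd79a at 0.38 and Ppbp at 0.065. With equal totals Gp1bb was at -0.052, Klf4 at -0.022 and Prtn3 at -0.0079, and with voom weights at -0.058, -0.023 and -0.0083. Gp1bb was at -0.12 on log2(FPKM + 1) and -0.17 on log2(FPKM + 0.1), and Lmo4 at 0.039 with median ratio scaling. Leaving out libraries moved Cd3d (-0.44 to 0.16), Cd79a (-0.60 to 0.0021), Gp1bb (-0.066 to 0.26), Klf4 (-0.24 to 0.39), Lmo4 (-0.11 to 0.10) and Ppbp (-1.36 to 0.0077). The cause was not tested. Depth limits the near-silent factors most, since Gata1 rests on 6 to 24 fragments in an APL library.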
